A study of Arabidopsis thaliana with 26 samples.

Results

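The reads described here are 5′ ETS degradation intermediates that end in a short untemplated tail of 2 to 5 nucleotides made only of adenosines, called short A tails below. They were selected on the recorded length and composition of the tail, and 8901 of 224354 reads (3.97%) met the rule. The data are 3′RACE-seq reads from rosette leaves of *Arabidopsis thaliana*, in which an adapter is ligated to RNA 3′ ends and a primer next to the P site amplifies the excised 5′ external transcribed spacer of the rRNA precursor. There are 13 genotypes with 2 libraries each in the Col-0 accession, and each library is made from a pool of several plants. The libraries hold 1621 to 23152 reads (median 7592) and 9 to 1679 short A tails (median 187.5).

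The genotypes fall into 4 backgrounds. In the Col-0 background all other exosome enzymes are intact. The *rrp6L2* and *mtr4* backgrounds carry T-DNA insertions, and *RRP44KD rrp6L2* adds an artificial miRNA against RRP44 that is driven by the mesophyll promoter *CAB3*, so that RRP44 is lowered rather than absent. Its transformants were chosen for accumulation of P-P′, the full spacer fragment from the P to the P′ site. In each background, Exo9 was active either through endogenous RRP41 or through an RRP41WT transgene in an *rrp41* null mutant. It was inactive where the null mutant carried RRP41Pi-Cat-, which is changed at the phosphate and magnesium sites. In the Col-0 background RRP41Pi-, changed at the phosphate site only, was also used. The transgenes are tagged and carry the putative RRP41 promoter. This gives 4 libraries with active and 2 with inactive Exo9 in each background, except Col-0 with 4 and 4. Replicates of a genotype are plants grown at different times.

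In nuclei, noncanonical poly(A) polymerases add short runs of adenosines to RNAs that are to be degraded, and the added bases give the exosome an unstructured end to start from. Exo9 is the core of the exosome, in which plant RRP41 keeps a phosphorolytic activity. RRP44 and RRP6L2 are hydrolytic 3′ to 5′ exoribonucleases that act with the core, and MTR4 is the helicase that feeds nucleolar substrates to it.

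The stretch where nearly all of these reads end is printed first, because its bases decide where an added adenosine can be told from the template. It is nucleotides P140 to P200 of the P-P′ fragment, with P1 as the fragment's first base, and it lies at chr3:14197254-14197314 on the plus strand of the RefSeq copy of TAIR10.1, 5′ of the rRNA gene AT3G41768. Exact copies of it are also found on chromosome 2, at chr2:3283-3343 and chr2:7191300-7191360. Capitals mark the 37 of 61 last templated nucleotides after which a pure A tail of 2 nt or more can be recorded.
P140 to P200: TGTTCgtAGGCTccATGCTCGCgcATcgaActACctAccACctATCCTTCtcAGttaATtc

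After 13 of the other ends the next reference base is A, so that an added A is read as template. After 11 ends the second following base is A, and the authors removed reads whose tail matched the reference at its second nucleotide. None of the 8901 short A tails was recorded at such an end, although these ends hold 18.5% and 22.8% of the reads that end from P140 to P200. Reads that end in A can also hide the first added bases: a tail added at P168 would be recorded at P169 and be 1 nt shorter. Of the short A tails pooled over all libraries, 64.4% followed a templated A, against 30.9% of the pooled untailed reads at recordable ends. For the short A tails this ran from 33.3% to 79.8% of a library. With active Exo9 it averaged 43.0% in the Col-0 background and 72.6% in *RRP44KD rrp6L2*. How many of the tails after a templated A began further 5′ cannot be told from the reads.

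The ends that the results turn on are shown with 20 templated nucleotides in lower case and, in capitals, the most frequent short A tail recorded there. P168, a main intermediate of the 5′ ETS, and P177 are shown with the next 2 reference bases in capitals, since no short A tail can be recorded at either. The templated parts lie on the plus strand, at chr3:14197255-14197274 for P160, chr3:14197264-14197283 for P169, chr3:14197281-14197300 for P186 and chr3:14197576-14197595 for P481.
P160: gttcgtaggctccatgctcgAA
P161: ttcgtaggctccatgctcgcAA
P164: gtaggctccatgctcgcgcaAA
P165: taggctccatgctcgcgcatAA
P168, next bases: gctccatgctcgcgcatcgaAC
P169: ctccatgctcgcgcatcgaaAA
P172: catgctcgcgcatcgaactaAAA
P173: atgctcgcgcatcgaactacAA
P176: ctcgcgcatcgaactacctaAA
P177, next bases: tcgcgcatcgaactacctacCA
P186: gaactacctaccacctatccAA
P481: tccgtccttcgggcaaaagaAA

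Among libraries with active Exo9, short A tails were rarest in the Col-0 background and most frequent where RRP44 was lowered in *rrp6L2*. Their share of all reads was 1.42% and 1.22% in the replicates of Col-0 and 1.32% and 0.945% in *rrp41* RRP41WT. It was 2.74% and 1.88% in *rrp6L2*, and 4.0% and 3.21% in *rrp6L2 rrp41* RRP41WT. *RRP44KD rrp6L2* had 7.47% and 6.71%, and *RRP44KD rrp6L2 rrp41* RRP41WT had 7.41% and 6.92%. In *mtr4* the share was 2.32% and 3.02%, and in *mtr4 rrp41* RRP41WT it was 2.65% and 3.99%. The 95% Wilson interval of a single library, which covers counting error only, was from 1.22% to 1.65% for the first replicate of Col-0 and from 0.794% to 1.88% for the second.

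**Figure D1:**
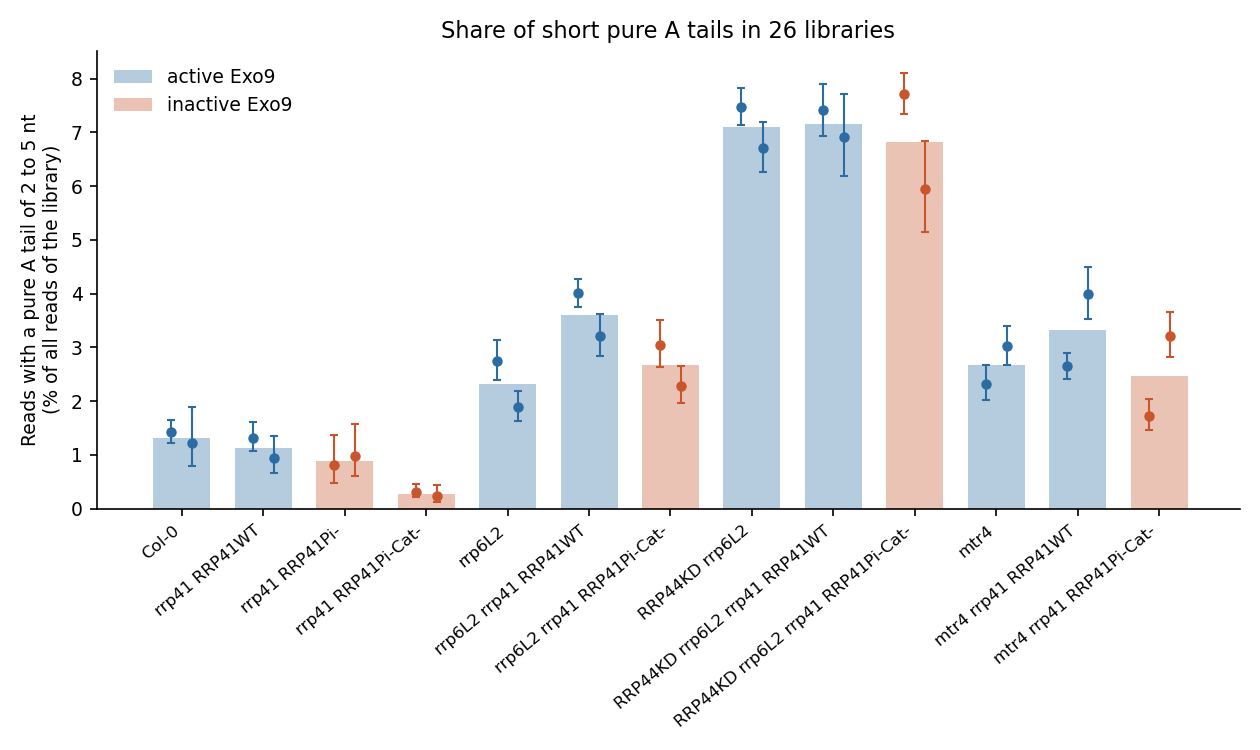
Percentage of all reads of a library that carry a pure A tail of 2 to 5 nt (y axis) in 13 genotypes (x axis). Bars are means of 2 libraries, points are single libraries and lines are 95% Wilson intervals; the 6 *RRP44KD rrp6L2* libraries lie from 5.94% to 7.72%, above the other 20.

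Among libraries with active Exo9, the 4 of *rrp6L2* averaged 2.96% ± 0.887 (SD, n = 4) against 1.23% ± 0.203 (n = 4) in the Col-0 background, a ratio of 2.41. The groups did not overlap (exact permutation test, two-sided, p = 0.0286, adjusted p = 0.0667 over 7 comparisons). The loss of MTR4 gave 2.99% ± 0.721 (n = 4), 2.44 times the Col-0 background, again without overlap (exact p = 0.0286, adjusted 0.0667). Lowering RRP44 on top of *rrp6L2* gave 7.13% ± 0.372 (n = 4), 2.41 times *rrp6L2* alone and without overlap (exact p = 0.0286, adjusted 0.0667). A p of 0.0286 is the smallest that 4 against 4 libraries can give, and none of the 7 comparisons passed 0.05 after adjustment. The comparisons of *rrp6L2* and of *mtr4* with Col-0 share the same Col-0 background libraries. Each group of 4 holds the genotypes with endogenous RRP41 and with RRP41WT, 2 libraries each. Its SD and p therefore mix the spread of genotypes and of replicates. In *rrp6L2* these genotypes did not overlap, with 1.88% and 2.74% against 3.21% and 4.0%.

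In the Col-0 background the mean share was lower with inactive Exo9, but the difference did not pass the test. The share was 0.802% and 0.976% with RRP41Pi- and 0.307% and 0.233% with RRP41Pi-Cat-, from 13, 16, 26 and 9 reads. The second RRP41Pi- library, at 0.976%, lay within the range of active Exo9, so the groups overlapped, and the means were 0.579% ± 0.366 and 1.23% ± 0.203 (n = 4 each, exact permutation test p = 0.0571, adjusted 0.1). Both RRP41Pi-Cat- libraries lay below both RRP41Pi- libraries. With 2 libraries each this was not tested. Reads at ends where a pure A tail can be recorded were 56.7% to 63.9% of a Col-0 background library with active Exo9. With inactive Exo9 they were 42.1% to 47.2%, so the share of all reads also depends on where reads ended. With the reads at recordable ends as denominator the direction held, and the difference again did not pass.

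With inactive Exo9 the *rrp6L2* background had 3.04% and 2.28%, the *RRP44KD rrp6L2* background 7.72% and 5.94%, and the *mtr4* background 1.73% and 3.21%. In *rrp6L2*, both values lay inside the range of active Exo9. In *RRP44KD rrp6L2*, 1 library lay below the lowest active library and the other above the highest. In *mtr4*, 1 library lay below the lowest active library and the other within the range. Averaged over the 4 backgrounds with equal weight, the mean share with inactive Exo9 differed by -0.440 percentage points from that with active Exo9, which did not pass the test (exact permutation within backgrounds, 236250 relabelings, p = 0.123, adjusted 0.172). Without single libraries this value ran from -0.663 to -0.218. Of these omissions, only that of the first *RRP44KD rrp6L2 rrp41* RRP41Pi-Cat- library passed unadjusted (-0.663, exact permutation p = 0.0244). The comparison also passed unadjusted with a replicate block, as a plain difference of means and with single A included. The last is another measure: single A reads numbered 18400 against 8901 short A tails. Of the single A reads, 8593 lie at ends where no short A tail can be recorded. The replicate numbers were not taken as pairing, as the labels do not say whether equal numbers share a growth time. Within backgrounds the replicates did differ. The first had the larger share in every *rrp6L2* and *RRP44KD rrp6L2* genotype, and the second in every *mtr4* genotype. The unblocked test does not remove such a difference. The change in Col-0 differed from that in the other backgrounds by -0.274 percentage points (exact permutation test, 210 relabelings, p = 0.524), a value that ran from -0.453 to -0.0816 without single libraries. Changes within a background share their active libraries. The Col-0 changes were -0.424 and -0.249 with RRP41Pi-, used in no other background, and -0.918 and -0.993 with RRP41Pi-Cat-. This test therefore cannot separate background from allele. RRP41WT libraries averaged 0.456 percentage points more short A tails than those with endogenous RRP41 of the same background, which did not pass either (exact permutation within backgrounds, p = 0.153, adjusted 0.178). Over all backgrounds, reads at ends where a pure A tail can be recorded averaged 60.2% of a library with active (n = 16) and 51.4% with inactive Exo9 (n = 10).

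The lengths of the tails chose these reads, so they are given as a description. Of the short A tails, 3327 had 2 nt, 2394 had 3 nt, 1760 had 4 nt and 1420 had 5 nt. Just outside the rule were 18400 reads with a single added A and 1220 reads with 6 added A. The upper edge of the rule thus coincides with no gap in the lengths. The share of tails of a given length that held only A was 64.7% at 2 nt, 69.3% at 3 nt, 69.3% at 4 nt and 68.9% at 5 nt. Tails of 2 to 5 nt that were not pure A were most often TA (372 reads), GA (369) and AT (294).

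**Figure D2:**
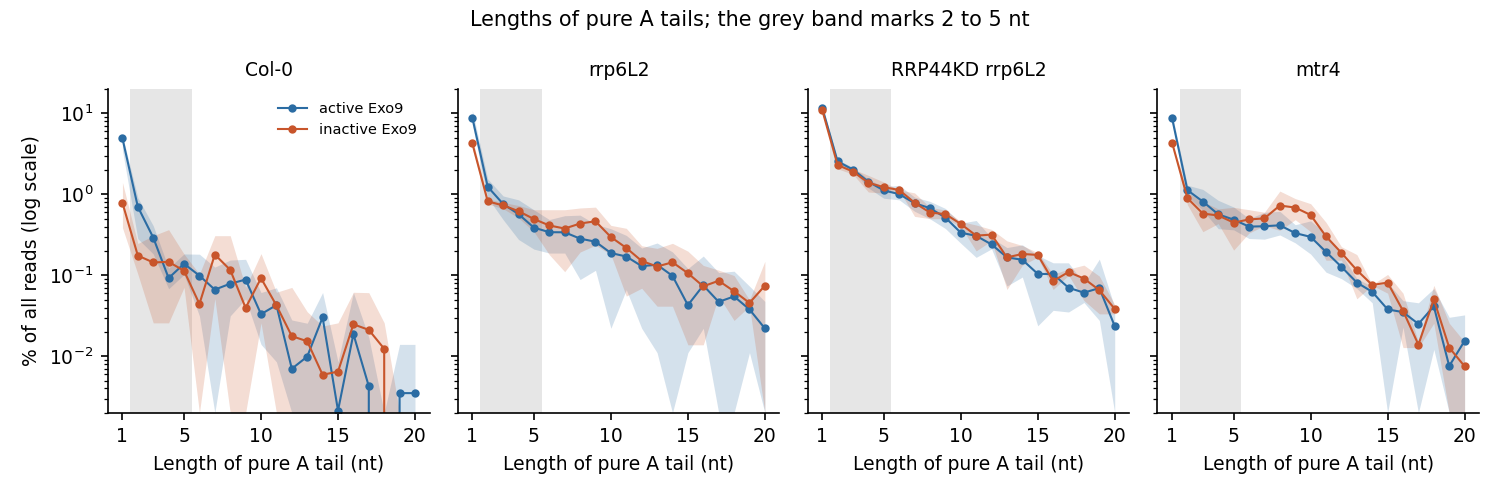
Percentage of all reads with a pure A tail of a given length (y axis, log scale) against tail length in nt (x axis), in 4 backgrounds with active (blue) and inactive (orange) Exo9. Lines are means over libraries and bands span the lowest to the highest library (values under the axis are drawn at its lower edge). The grey band marks 2 to 5 nt. At 1 nt the Col-0 libraries lie from 3.53% to 5.40% with active and from 0.388% to 1.40% with inactive Exo9. The values at 1 nt include ends where longer pure A tails cannot be recorded.

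The mean length of the short A tails was 2.57 and 2.80 nt in Col-0, 2.54 and 3.13 nt in *rrp41* RRP41WT, 3.15 and 3.50 nt with RRP41Pi- and 3.35 and 3.33 nt with RRP41Pi-Cat-. In the first Col-0 replicate 62.0% of the short A tails had 2 nt, and in the first *rrp41* RRP41WT replicate 69.1%. All 4 libraries with inactive Exo9 in this background had 25% to 44.4% at 2 nt, from 9 to 26 reads each, and the second *rrp41* RRP41WT replicate, with 30%, lay in that range. In *rrp6L2* the mean length was 2.89 to 3.15 nt with active Exo9 and 3.38 and 3.19 nt with inactive Exo9, without overlap. In *RRP44KD rrp6L2* it was 3.05 to 3.22 nt and 3.26 and 3.18 nt, and in *mtr4* 3.07 to 3.24 nt and 3.06 and 3.31 nt, and in both the groups overlapped.

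Short A tails made up 71.7% ± 6.98 (SD, n = 4) of all pure A tails of 2 to 30 nt in the Col-0 background with active Exo9 and 45.9% ± 14.3 (n = 4) with inactive Exo9. In *mtr4* these shares were 54.6% ± 1.42 (n = 4) and 39.1% ± 1.17 (n = 2). In *rrp6L2* they were 59.4% ± 11.8 (n = 4) and 50.5% ± 18.7 (n = 2), and in *RRP44KD rrp6L2* 60.6% ± 4.16 (n = 4) and 57.2% ± 1.07 (n = 2). The *mtr4* groups did not overlap, those of the other 3 backgrounds did.

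Short A tails were recorded at 95 different 3′ ends from P23 to P481, and 96.3% of them from P140 to P200. The 6 ends with the largest mean share of a library's short A tails were P169, P176, P172, P160, P173 and P161, which together held 6897 of the 8901 reads (77.5%; 34.1% to 94.2% of a library). P169 held 1884 reads, P172 1738, P176 1382, P173 878, P160 615 and P161 400. P161, P168, P176 and P186 are the main intermediates that the study named. P186, where a tail can be recorded, held only 28 short A tails among 17377 reads (0.161%).

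The ends differed in the percentage of reads recorded with a short A tail. In libraries with at least 20 reads at an end, the median percentage of reads with a short A tail was 22.3% at P172 (1.47% to 33.8%, 20 libraries). It was 9.11% at P169 (0.610% to 23.5%, 26 libraries), 8.32% at P160 (0% to 12.8%, 22 libraries) and 7.52% at P173 (0% to 18.6%, 26 libraries). At P176 it was 5.73% (0% to 20.3%, 25 libraries) and at P161 3.19% (0% to 6.91%, 20 libraries). These ranges overlapped, and the libraries were not the same: the Col-0 background gave 2 libraries at P172 and 8 at P169 and P173. P169, P172 and P176 end in A, so their tailed reads may include tails that began further 5′. The percentages are therefore not rates at which these ends were tailed. The untailed reads were distributed otherwise than the tailed ones: at P161, P176 and P186 untailed reads numbered 7571, 13171 and 16978, against 1925 at P172. The profile of the short A tails over 3′ ends differed from that of the untailed reads at recordable ends of the same library by a median total variation distance of 54.6% (33.1% to 84.9%), where 100 would be no shared ends. From the profile of pure A tails of 6 to 30 nt it differed by a median of 40.8% (22.6% to 85%). Both distances also grow with low read numbers. The 84.9% and the 85% come from libraries with 9 and 20 short A tails.

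Ends were not alike in the balance of short and longer tails. In libraries with at least 20 pure A tails of 2 nt or more at an end, the median percentage of short ones among them was 80.7% at P173 (68.8% to 94.1%, 12 libraries), 72.4% at P176 (60% to 100%, 18 libraries) and 68.1% at P172 (58.8% to 73.5%, 13 libraries). It was 50% at P160 (38.1% to 78.3%, 13 libraries) and 43.6% at P161 (33.8% to 87.8%, 13 libraries). P161 differed between backgrounds, with 82.1% and 87.8% in 2 Col-0 background libraries and 33.8% to 35.7% in 3 of *RRP44KD rrp6L2*. The tails at P172 had a mean length of 3.34 nt, and 3 nt was their most frequent length, whereas at P161 53.5% had 2 nt (mean 2.96 nt).

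In the Col-0 background with active Exo9, P176 and P161 led. Short A tails at P176 were 0.452%, 0.245%, 0.420% and 0.0945% of all reads in the 2 Col-0 and the 2 *rrp41* RRP41WT libraries. At P161 they were 0.307%, 0.184%, 0.448% and 0.0945%. All 8 values were above those of the 4 libraries with inactive Exo9, in which each end held 0 or 1 short A tail, at most 0.061% of a library's reads. At these depths 3 reads are 0.0354% to 0.185% of a library, so that lower shares were not detectable in some of them.

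In *rrp6L2* with active Exo9, short A tails spread over P160, P172, P173 and P176. Those at P176 were 0.407%, 0.399%, 0.622% and 0.767% of all reads, and those at P172 were 0.271%, 0.388%, 0.549% and 0.780%. With inactive Exo9, P176 held 0.215% and 0.221%, below every active library. P165, which held 0%, 0%, 0.0173% and 0.0128% with active Exo9, held 0.844% and 0.346%. At P161 the values were 0.271%, 0.199%, 0.402% and 0.153% with active Exo9 and 0 and 0.0138% with inactive Exo9. At none of these 3 ends did the groups overlap.

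In *RRP44KD rrp6L2* the tails gathered at P169, P172, P173 and P176. P169 held 1.76%, 1.79%, 1.98% and 1.16% of all reads with active Exo9, and P172 held 1.91%, 2.01%, 1.83% and 2.95%. The values of *rrp6L2* with active Exo9 reached 0.230% at P169 and 0.780% at P172, so neither end overlapped between the backgrounds. With inactive Exo9, P169 held 3.05% and 2.24%, above the 4 active libraries, while P172 held 1.95% and 1.77%, within or just below their range.

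In *mtr4* with active Exo9, P176 held 0.571%, 0.606%, 0.684% and 0.810% of all reads and P169 0.243%, 0.332%, 0.266% and 0.519%. With inactive Exo9, P176 held 0.0384% and 0.120% and P164, an end named after its values were seen, held 0.358% and 0.781%. P164 had 0.0486%, 0.0915%, 0.188% and 0.308% with active Exo9, so that the groups did not overlap at either end.

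**Figure D3:**
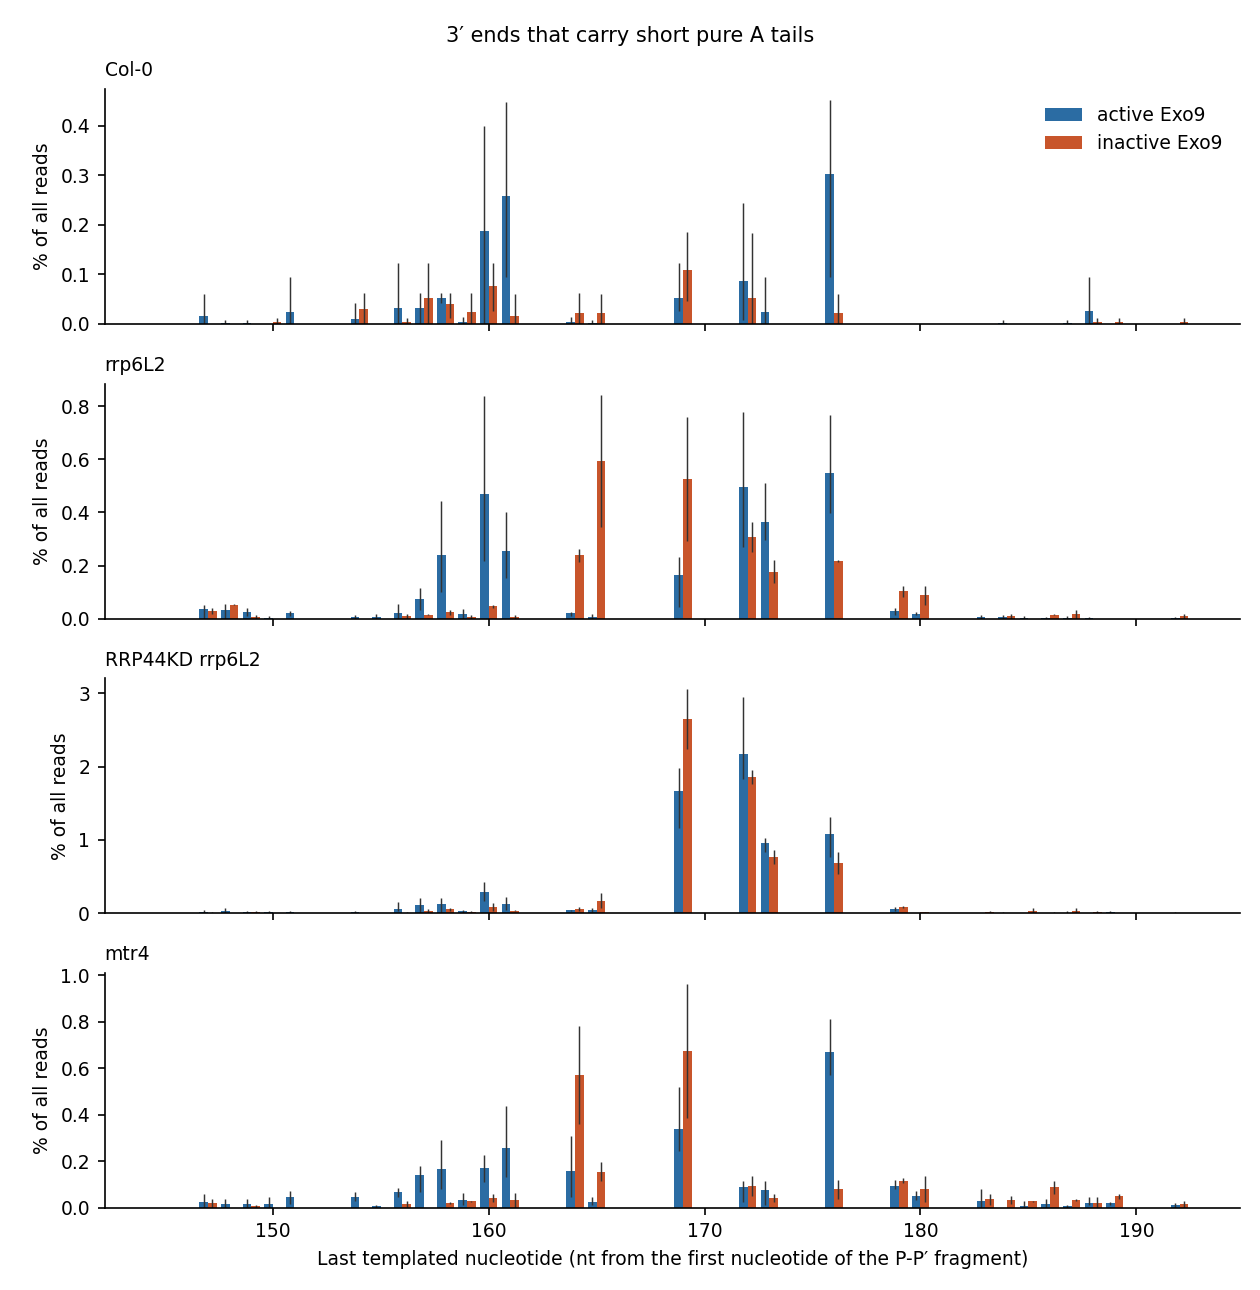
Short A tailed reads as percentage of all reads of a library (y axis, scaled per panel) by last templated nucleotide (x axis, nt from the start of P-P′), in 4 backgrounds with active (blue) and inactive (orange) Exo9. Bars are means over libraries and lines span the lowest to the highest library; P176 is lower with inactive Exo9 in all 4 panels and P169 is higher in all 4.

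A scan asked at which ends the share of short A tails, as a percentage of all reads, changed with inactive Exo9 over the 4 backgrounds. Of 32 ends from P140 to P200 with at least 10 such reads, 14 passed (43.8%; exact permutation within backgrounds with Benjamini-Hochberg adjustment). The same scan over all reads, tailed or not, passed at 35 of 61 ends (57.4%), which is the larger share. The short A tails fell at 8 ends (25%) and rose at 6 (18.8%), against 17 (27.9%) and 18 (29.5%) among all reads. All 14 ends changed in the same direction among all reads, and 13 of them passed there too; P173, with an adjusted p of 0.0888, did not.

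The 5 largest differences were at P169, P176, P165, P160 and P161. Short A tails at P169 rose by a mean of 0.431 percentage points (adjusted p = 0.00316 in the exact permutation scan, 4 of 4 backgrounds), and those at P165 by 0.218 (adjusted p = 0.00135, 4 of 4). At P176 they fell by 0.398 percentage points (adjusted p = 0.000813 in the exact permutation scan), at P160 by 0.217 (0.0123) and at P161 by 0.2005 (0.00102), each in 4 of 4 backgrounds. In the same exact permutation scan P164 rose by 0.166 percentage points (adjusted p = 0.00316), and P172, the third of the 6 leading ends, differed by -0.134 and did not pass (adjusted p = 0.30). At P186 the rise of 0.0228 percentage points passed the exact permutation scan (adjusted p = 0.00677) but rests on 28 reads, 21 of them in *mtr4* libraries.

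Whether an end gained or lost tails for its number of reads is a separate question. It was addressed by taking the short A tailed reads as a percentage of the reads at the same end, in libraries with at least 20 reads there, a comparison added after the data were seen. None of 23 ends with values passed (0%, exact permutation within backgrounds with Benjamini-Hochberg adjustment, smallest adjusted p = 0.213), and 2 had an unadjusted p under 0.05. Some ends kept few libraries: P147 and P189 allowed 16 and 12 relabelings, too few to reach 0.05. The result therefore does not show that tailing per read was unchanged. At P176 the tailed percentage of reads was 9.04% with inactive and 5.77% with active Exo9, a within-background difference of 4.11 percentage points (exact permutation p = 0.00924, adjusted 0.213). At P173 it was 5.75% and 9.49%, a difference of -2.29 (exact p = 0.0243, adjusted 0.279). At P169, P160 and P172 the differences were 1.77, 0.648 and 1.81 percentage points (exact permutation, adjusted p = 0.494, 0.813 and 0.751).

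Both the tailed reads and all reads at P176 were fewer with inactive Exo9. In *rrp6L2* the reads at P176 that carried a short A tail were 30 of 688, 36 of 953, 144 of 2275 and 60 of 1047 with active Exo9, and 13 of 64 and 16 of 149 with inactive Exo9. The percentages were 4.36%, 3.78%, 6.33% and 5.73% against 20.3% and 10.7%, without overlap. In *RRP44KD rrp6L2* the percentages were 9.65%, 5.63%, 8.21% and 8.61% against 11.8% and 12.5%, also without overlap. In *mtr4* they were 4.28%, 6.18%, 5.15% and 7.95% against 4.48% and 14.5%, which overlapped. In Col-0 with inactive Exo9, 2 of 85 reads at P176 were tailed. The 7 Col-0 background libraries with at least 20 reads there, active and inactive together, had 0% to 6.34% (median 3.23%).

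The tailed percentage at P169 was 1.22%, 2.94%, 0.766% and 0.610% in the Col-0 background, and 7.27%, 1.46%, 10.8% and 9.09% in *rrp6L2*, all with active Exo9. In *RRP44KD rrp6L2* it was 23.2%, 19.6%, 20.5% and 15.6%, above every *rrp6L2* library. In *mtr4* it was 9.80%, 9.12%, 10.1% and 12.0%. At P172, where *rrp6L2* had 21.7%, 22.9%, 32.6% and 27.4% and *RRP44KD rrp6L2* 33.4%, 30.1%, 28.6% and 32.4%, these backgrounds overlapped. In *mtr4* 3.33%, 13.7%, 11.8% and 11.5% of the P172 reads were tailed, below all libraries of both. These values are a description of ends chosen for their number of tails.

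**Figure D4:**
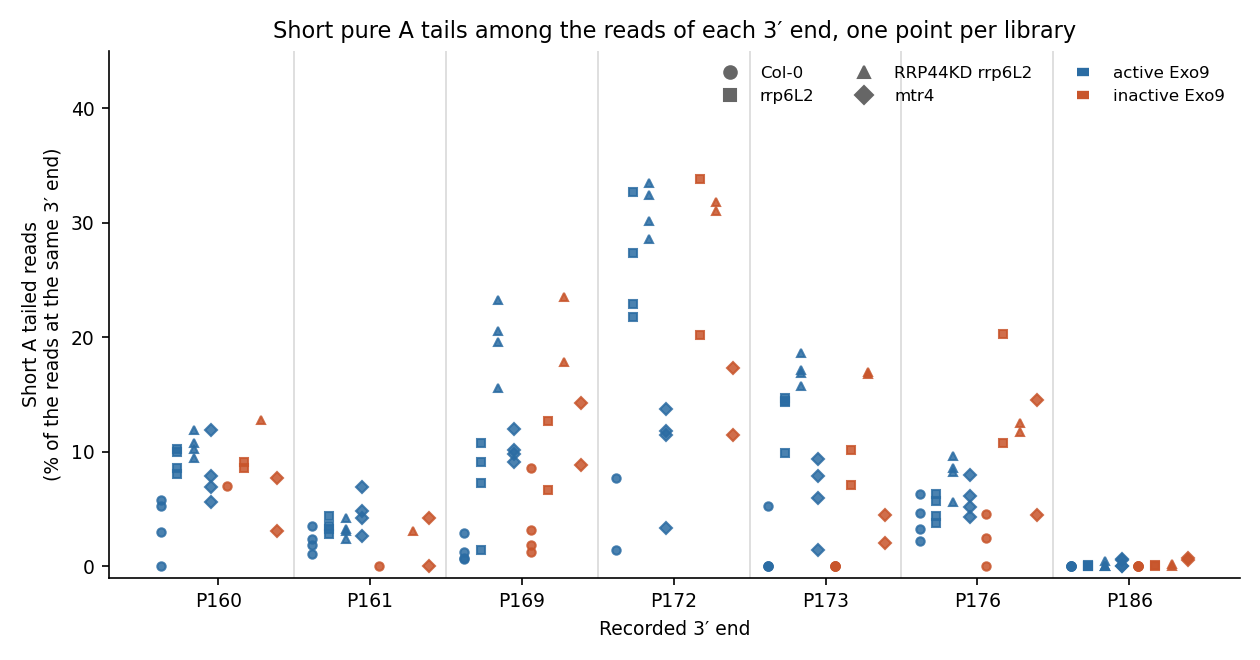
Short A tailed reads as percentage of the reads at the same 3′ end (y axis), one point per library with at least 20 reads there, at the 7 named ends where tails can be recorded (x axis). Colour gives Exo9 activity and shape the background. P172 has the highest mean of these ends in *rrp6L2* and *RRP44KD rrp6L2*, and no library exceeds 0.775% at P186.

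A small group of short A tails lay at P481, the 3′ end of the P-P′ fragment itself, which was named after its values were seen. RNA was selected for shorter sizes before sequencing, and 171 reads ended at P481. Of these, 87 carried a short A tail (50.9%), only 4 a longer pure A tail and 45 none. P481 ends in A, so the tailed reads may include tails that began further 5′. *mtr4* libraries held 80 of the 87. They were 10 of 16 and 38 of 79 reads in *mtr4*, 1 of 3 and 21 of 40 in *mtr4 rrp41* RRP41WT, and 1 of 1 and 9 of 22 with RRP41Pi-Cat-. Outside *mtr4* there were 2 such reads in 1 *rrp41* RRP41WT library and 5 in 1 *RRP44KD rrp6L2* library, and none in the other 18.

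Reads that end from P157 to P200 hold either the reference T or a C at one base of the fragment (T137C, position counted from P1). This measure was not used to choose the tails. In the 21 libraries with at least 20 short A tails in this stretch, 57.1% ± 15.7 (SD) of the short A tails held the C, against 52.8% ± 16.1 of untailed reads weighted to the same 3′ ends. The difference averaged 4.28 percentage points ± 5.47 (SD, n = 21), and short A tails had more C in 18 of the 21 (sign-flip permutation test over libraries, 100000 resamples, two-sided, p = 0.00177).

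The size of the difference ranged widely over the libraries. In all 6 *mtr4* libraries the short A tails had more C, by 3.78 to 14.98 percentage points. In the 3 Col-0 background libraries the excess was 6.61 to 10.2 percentage points, and in the 6 *rrp6L2* libraries it was 0.00479 to 9.68. In *RRP44KD rrp6L2*, which holds the most short A tails, 3 of 6 libraries had more C and the differences ran from -5.27 to 2.43. These ranges were not tested against each other. The C share of the short A tails was higher with inactive than with active Exo9, without overlap, in each of the 4 backgrounds. It was 85% against 60.8% and 75% in Col-0, and 78.8% and 71.4% against 39.9% to 47.9% in *rrp6L2*. The 85% is 17 of 20 reads in 1 library, the only inactive one in Col-0 with enough reads, and the 75% is 63 of 84. In *RRP44KD rrp6L2* it was 76% and 70.2% against 41.4% to 50.8%, and in *mtr4* 75.2% and 65.6% against 34.2% to 58.0%. The untailed reads did not overlap in 3 of the 4 backgrounds either, the exception being *mtr4*, with 66.7% and 50.7% against 27.4% to 52.7%. These levels were not tested.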

How the data were processed

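The 26 3′RACE-seq libraries come from total RNA of rosette leaves. Per the deposited table and the authors' methods, reads were deduplicated by insert and random adapter bases, read 2 was mapped to the rRNA repeat unit, and unmatched reads were trimmed by up to 30 nt from the 3′ end; the removed bases are the tail. The table holds, per read, the position of the last templated nucleotide, the encoded sequence and the tail, with no count or normalized value, and the authors applied no normalization. The 20 nt before the tail matched the reference in 100% of the short A tailed reads. Sequences and positions come from the study's reference of the 5′ ETS, matched here to RefSeq TAIR10.1.

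Shares are percentages of all reads of a library, unless stated. Groups were compared by two-sided exact permutation tests on libraries with a threshold of 0.05, within backgrounds where several were pooled, and p-values were adjusted by Benjamini-Hochberg. Where labels give only a replicate number, p-values measure the spread between these libraries. Wilson intervals (95%) and a floor of 3 reads cover counting error only. Named ends are the 4 main intermediates and the 6 ends with the largest mean share of short A tails; from the scan, the 5 largest differences. The ends, the tail lengths and the base T137C were chosen with earlier results of these data known. The scan was tested on simulated data. Alternatives were other denominators, tail lengths of 1 to 5, 2 to 6 and 3 to 5 nt, thinning, a replicate block and the omission of each library; limits to libraries with at least 20 short A tails and to reads at the same end were added after the data were seen. Tests were written in Python 3.11.15 with scipy 1.17.1, pandas 2.3.3 and numpy 2.4.6; figures were drawn with matplotlib 3.10.9.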

Additional observations from a re-analysis of the deposited data

Results flagged for a closer look

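At single ends, 1 library of an arm of 4 stood apart from the others in 8 of 47 arms examined, by the gap to its nearest neighbour divided by the range. For continuous values chance gives such a gap in about 1 of 20 arms, but in 4 of the 8 a single library held all the reads and the gap equals the range by construction, so that the 8 cannot be set against that rate. Short A tails at P161 were 0.0610% of all reads in the second RRP41Pi- library and 0 in the other 3 with inactive Exo9 in the Col-0 background. At P169 the second Col-0 library had 0.122%, and at P173 the second *rrp41* RRP41WT library had 0.0945%, against at most 0.0315% and 0. At P172 the second RRP41Pi- library (0.183%) and the second *RRP44KD rrp6L2 rrp41* RRP41WT library (2.95%) were high, and the first *mtr4* library (0.0243%) was low. At P186 the first *rrp6L2 rrp41* RRP41WT library (0.00432%) and the first *RRP44KD rrp6L2 rrp41* RRP41WT library (0.0088%) each had 1 read and their arms none otherwise. The 2.95% at P172 rests on 124 reads, and each of the other values on 1 to 3 reads.

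Outside P140 to P200, short A tails at P481 had a mean of 0.226% of all reads in *mtr4* with active and 0.0740% with inactive Exo9. The Col-0 background had 0 in 7 of 8 libraries and 0.0630% in the other. The *mtr4* libraries did not all lie above that value: *mtr4 rrp41* RRP41WT replicate 1 had 0.00606% and *mtr4 rrp41* RRP41Pi-Cat- replicate 1 had 0.0128%, 1 read each, and the replicate 2 libraries held 68 of the 80 reads. The inactive mean rests on 0.0128% and 0.135%.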

How the results depend on the processing

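The direction of the 7 comparisons of shares held in every alternative. The share of inactive against active Exo9 over the backgrounds passed 0.05 with a replicate block (-0.440, p = 0.0367), as a plain difference of means (-0.952, p = 0.0393), with single A included (1 to 5 nt, -3.90, p = 1.69e-05) and without 1 *RRP44KD rrp6L2 rrp41* RRP41Pi-Cat- library (-0.663, p = 0.0244); without single libraries it ranged from -0.663 to -0.218 by exact permutation. In the Col-0 background it passed for 2 to 6 nt (-0.701) and 1 to 5 nt (-4.77), both at exact p = 0.0286. It ranged from -0.778 to -0.530 without single libraries, passing without the second RRP41Pi- library. Tails of 1 to 5 nt are mostly single A, so their values are another measure than the share of short A tails. With a replicate block the differences of *rrp6L2* (1.73), *RRP44KD rrp6L2* (4.17) and *mtr4* (1.77) had exact p = 0.0556, the smallest that design allows; without single libraries they ranged from 1.39 to 2.09, 3.81 to 4.52 and 1.44 to 1.99, and *rrp6L2* reached exact p = 0.0571 without any 1 of its 4 Col-0 background libraries. The scan passed at 9 ends with short A tails as denominator, at 7 of 12 after thinning, at 0 of 23 per read at the end, and at 10 to 15 without single libraries. The replicate block left 12 of its calls. The replicate numbers were not taken as pairing, as the labels do not say whether equal numbers share a growth time. Deviations of same-numbered libraries correlated between -0.750 and 0.853, above 0.1 in 36 of 78 pairs of genotypes. These pairs pool the backgrounds. Within *rrp6L2* and *RRP44KD rrp6L2* every genotype had the larger share of short A tails in the first replicate, and within *mtr4* in the second. T137C (3.75 to 4.76 without single libraries) passed in every alternative. Depth limits the Col-0 background with inactive Exo9, with 9 to 26 short A tails a library.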
